A study of Mus musculus with 8 samples.

Results

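The members were 10 genes of the T lineage, chosen by name: Lck, Tcf7, Gata3, Lef1, Bcl11b, Notch1, Cd3d, Cd3e, Cd3g and Cd2. They are 10 of 20643 genes that had a named probe on the array. Where a gene had several probes, the one with the highest mean level was used. Each was measured once in each of 8 groups of C57BL/6 mice, in LSK cells, which are marrow cells without lineage markers that carry c-Kit and Sca-1 and include the blood stem cells. A level is the log2 of a probe's signal over the 75th percentile of its array, and levels are not compared between probes.

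Donor CD45.2+ stem cells with a Cre-ERT transgene carried either floxed or wild-type Ezh2, and were given a retrovirus with RUNX1S291fs, a frameshift mutant of the transcription factor RUNX1, or an empty one. Lethally irradiated recipients received them beside CD45.1+ wild-type marrow, and Ezh2, the catalytic subunit of the Polycomb repressive complex PRC2, was then deleted. The 8 groups were double-mutant cells of a moribund mouse with myelodysplastic syndrome and myeloid leukemia (RUNX1S291fs/Ezh2Δ/Δ-MDS/ML), double-mutant cells of a moribund mouse with myelodysplastic syndrome (RUNX1S291fs/Ezh2Δ/Δ-MDS), double-mutant cells at month 4 (RUNX1S291fs/Ezh2Δ/Δ), RUNX1S291fs cells, Ezh2Δ/Δ cells, CD45.1+ wild-type competitor cells from double-mutant mice, the same from RUNX1S291fs mice, and WT cells. All but the moribund groups were taken at month 4, and the CD45.2+ RNA of that month came from pools of 2 to 4 mice. Each moribund array held 1 mouse, whose age the labels do not state. No group had a second array.

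T cells arise when lymphoid-primed progenitors leave the marrow for the thymus, where ligands on the stroma activate the receptor Notch1. Notch1 signalling turns on Tcf7 (TCF-1) and Gata3, and these lead to Bcl11b, which closes the other fates. Lef1 is the close relative of TCF-1. Cd3d, Cd3e and Cd3g are the subunits that carry the T-cell receptor's signal into the cell, Lck is the kinase that starts that signal, and Cd2 is an adhesion receptor of T and NK cells. RUNX factors are needed for early T-cell development.

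The promoters of Lck and Tcf7 are shown because these were the members tested that were lower on each RUNX1S291fs array than on each other array. The sequences are those of RefSeq on GRCm38.p6, 5′ to 3′. Each is a window of 300 bases that ends just past a listed start of the gene, and capitals mark the RUNX motif TGTGGT.
Lck chr4:129573592-129573891, minus strand: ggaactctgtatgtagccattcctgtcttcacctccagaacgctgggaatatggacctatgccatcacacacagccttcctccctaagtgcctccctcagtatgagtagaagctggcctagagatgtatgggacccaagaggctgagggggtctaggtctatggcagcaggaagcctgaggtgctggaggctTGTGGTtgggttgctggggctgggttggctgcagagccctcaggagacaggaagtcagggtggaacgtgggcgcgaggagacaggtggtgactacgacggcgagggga
Lck chr4:129558323-129558622, minus strand: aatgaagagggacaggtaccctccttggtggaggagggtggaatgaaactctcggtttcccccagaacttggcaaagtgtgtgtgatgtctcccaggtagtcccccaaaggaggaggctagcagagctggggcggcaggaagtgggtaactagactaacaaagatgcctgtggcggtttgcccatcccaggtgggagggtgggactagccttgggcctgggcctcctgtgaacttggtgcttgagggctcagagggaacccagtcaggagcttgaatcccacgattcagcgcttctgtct
Tcf7 chr11:52282965-52283264, minus strand: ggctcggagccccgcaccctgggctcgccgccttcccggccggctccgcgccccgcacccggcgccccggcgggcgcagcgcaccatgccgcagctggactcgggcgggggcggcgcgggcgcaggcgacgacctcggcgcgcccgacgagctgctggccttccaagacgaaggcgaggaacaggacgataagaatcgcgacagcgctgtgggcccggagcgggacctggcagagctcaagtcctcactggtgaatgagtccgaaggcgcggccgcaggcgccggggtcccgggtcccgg
Tcf7 chr11:52282546-52282845, minus strand: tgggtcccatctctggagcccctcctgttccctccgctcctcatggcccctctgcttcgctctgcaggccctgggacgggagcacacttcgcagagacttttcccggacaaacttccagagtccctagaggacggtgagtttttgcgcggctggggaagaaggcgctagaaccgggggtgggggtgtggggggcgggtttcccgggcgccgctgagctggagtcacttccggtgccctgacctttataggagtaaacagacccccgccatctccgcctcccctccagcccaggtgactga

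Of the members, 9 had an entry in the promoter table, with 14 promoters of 300 bases, and Cd2 had none. The RUNX motif, searched on both strands, stood in 1 of the 14, the first Lck promoter above, 58 bases before the start and on the gene's strand. In the table as a whole, 16.8% of 32851 promoters held it. The TCF/LEF motif CTTTGA stood in 3 member promoters (Lef1, Cd3d and Bcl11b) against 16.0% of all, and the GATA motif AGATAA in 2 (Lef1 and Cd3g) against 11.2%. Neither Tcf7 window printed above held the RUNX motif. Bases outside these windows, among them any start of Tcf7 further upstream, were not searched, so absence from the Tcf7 promoter cannot be read from this. A match describes the letters only.

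Between 43.9% and 55.3% of probes were well above background on an array, and 0 were saturated. Brightness, as the 75th percentile of signal, lay between 185.7 (the CD45.1+ array from RUNX1S291fs mice) and 474.1 (the WT array). Repeat spots of a probe differed by a median SD of 0.0840 to 0.115 on the log2 scale, which covers spotting only. Ezh2 signal was 3.10 to 4.01 on all arrays, carriers of the deletion included. The labels do not say which part of Ezh2 was deleted, so this probe does not check the deletion. Kit, one of the sort genes, was at 4.06 to 5.11, and Ly6a, which encodes Sca-1, was at 0.53 and 1.18 on the MDS and MDS/ML arrays, against 3.17 to 4.14 on the month 4 arrays. The Ly6a stage effect was -2.26 ± 0.38 (SE, limma adjusted p = 0.0367), so the moribund arrays had less of a gene that the sort was made on, and the part this had in the results on moribund cells was not tested. WT, double-mutant and MDS arrays shared a slide, Ezh2Δ/Δ, RUNX1S291fs and both CD45.1+ arrays shared another, and the MDS/ML array was on the third.

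Of the 10 members, 8 were well above background on at least 3 arrays and were tested, and 4 of them (Lck, Gata3, Notch1 and Cd3e) were so on all 8. Lef1 and Bcl11b were not tested. The test was an additive limma model over the 8 arrays with terms for RUNX1S291fs, Ezh2 deletion and moribund stage, adjusted over 13548 genes. In it the spread comes from departures between arrays that share a factor. Both moribund arrays were double mutant, so the stage term takes them up, and the sizes of the genotype effects rest on the month 4 arrays alone. A stage effect is the moribund level over the sum of both genotype effects, not over double-mutant cells of month 4. None of the 8 tested members passed for any term, and the smallest adjusted p among them was 0.0683. Across all genes tested, 0.0148% passed as lower with RUNX1S291fs and 0.0% as higher. For Ezh2 deletion the shares were 0.0% in each direction, and at an unadjusted limma p under 0.05 212 genes were higher (1.56%, with 0 of 8 members) and 109 lower (0.805%, also with 0 of 8 members). For stage they were 0.273% higher and 1.57% lower, and for the product of both genotypes 0.0% in each direction.

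**Figure D1:**
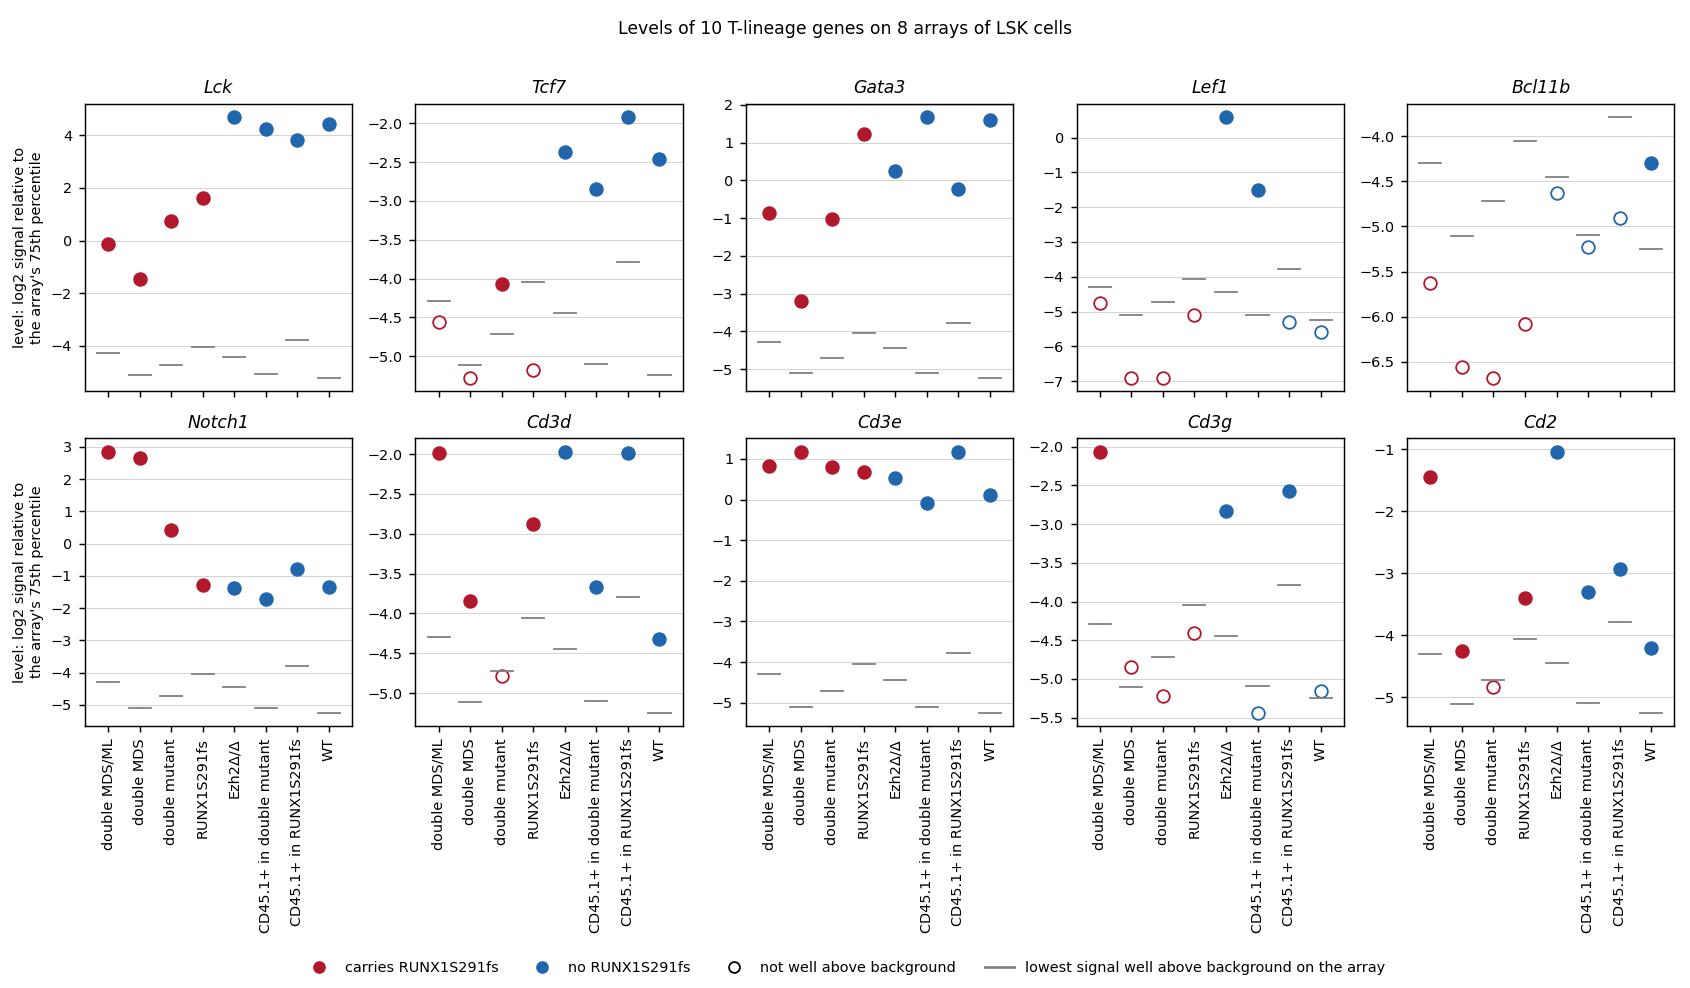
Level of each of the 10 members on the 8 arrays, as log2 signal relative to the array's 75th percentile, with 1 point for each array and no error bars because no group has a second array. Red points carry RUNX1S291fs, open points were not well above background, and grey bars mark the lowest signal well above background. Lck lies lower on the 4 red points than on the 4 blue ones, and the brighter Notch1 probe, shown here, is highest on both moribund arrays.

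Lck, the Src-family kinase of the T-cell receptor, had levels of 1.61 in RUNX1S291fs cells, 0.74 in double-mutant cells, -1.47 in double-mutant MDS cells and -0.14 in double-mutant MDS/ML cells. Against these, it was at 4.69 in Ezh2Δ/Δ cells, 4.26 in CD45.1+ cells from double-mutant mice, 3.84 in CD45.1+ cells from RUNX1S291fs mice and 4.42 in WT cells. All 4 carriers of RUNX1S291fs were lower than all 4 other arrays, and the groups did not overlap. The mean was 0.186 ± 1.31 on carriers and 4.30 ± 0.358 on the others (SD, n = 4 arrays each), a difference of 17.3-fold. In the model, the RUNX1S291fs effect on Lck was -3.12 ± 0.50 (SE), with a limma adjusted p of 0.114. Of the 8 members tested, 2 had an unadjusted p under 0.05 as lower (3.35% of all genes), and 0 as higher (2.60% of all genes). In bulk samples, fewer cells with a gene's RNA and less RNA per cell cannot be told apart.

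The Lck difference was present within slides. On the slide with the WT, double-mutant and MDS arrays, double-mutant cells of month 4 were 12.8-fold below WT cells, and on the slide with the single mutants, RUNX1S291fs cells were 4.69-fold below CD45.1+ cells from the same mice. With slide as a block the effect was -3.07 ± 0.45 (adjusted p = 0.211 by limma), and with the month 4 arrays alone -3.12 ± 0.41 (adjusted p = 0.0842 by limma). The size of the latter could not differ from the main fit, since the stage term already takes up both moribund arrays, so it is no further check. With mutant and competitor cells of both marrows alone and marrow as a block, the Lck effect was -2.87 ± 0.59 (adjusted p = 0.311 by limma). This fit had no term for Ezh2 deletion, which the double-mutant cells also carry. Leaving out each array in turn gave -3.95 to -2.56, where leaving out either moribund array could not move the effect. The effect of Ezh2 deletion on Lck was -0.03 ± 0.50, and in Ezh2Δ/Δ cells Lck was 1.21-fold above WT.

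Tcf7, the gene for TCF-1, a transcription factor of T-cell commitment, had levels of -5.18 in RUNX1S291fs cells, -4.07 in double-mutant cells, -5.29 in MDS cells and -4.56 in MDS/ML cells. The other arrays were at -2.37 for Ezh2Δ/Δ cells, -2.84 and -1.92 for CD45.1+ cells from double-mutant and RUNX1S291fs mice, and -2.46 for WT cells. All 4 carriers were again below all 4 others. Of the carriers, only double-mutant cells at month 4 were well above background, so 3 of these values are no more than dim signal. The mean was -4.77 ± 0.568 on carriers and -2.40 ± 0.377 on the others (SD, n = 4 arrays each), with a fitted RUNX1S291fs effect of -2.34 ± 0.42 (limma adjusted p = 0.140). With dim values raised to the array's floor the effect was -1.67, and with all probes averaged -1.36. With normexp background correction it was -0.63 (adjusted p = 1.00 by limma). The effect was thus smaller than in the main fit under each of these settings, and smallest under normexp. Against WT, the level was at least 3.01-fold lower in RUNX1S291fs cells and 3.05-fold lower in double-mutant cells. Of the 8 tested members, 2 (Lck and Tcf7) lay on each carrier below each non-carrier, as did 4.88% of all genes, and 0 lay above (3.71% of all genes).

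Gata3, a transcription factor of early T-cell specification, overlapped between carriers and the other arrays. It was at 1.23 in RUNX1S291fs cells, -1.01 in double-mutant cells, -3.19 in MDS cells and -0.87 in MDS/ML cells, against 0.25 in Ezh2Δ/Δ cells, 1.67 and -0.22 in CD45.1+ cells from double-mutant and RUNX1S291fs mice, and 1.59 in WT cells. The RUNX1S291fs array lay among the non-carriers, and the CD45.1+ cells from those mice lay below it by 2.73-fold. Gata3 was 6.06-fold lower in double-mutant than in WT cells, and 6.42-fold lower in them than in the CD45.1+ cells of the same mice. The fitted effects on Gata3 were -1.36 ± 0.83 for Ezh2 deletion (limma adjusted p = 1.00) and -0.37 ± 0.83 for RUNX1S291fs. In MDS cells Gata3 was 4.51-fold below double-mutant cells of month 4, and in MDS/ML cells it was 0.14 (log2) above them.

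Lef1 and Bcl11b were mostly dim. Lef1 was well above background on 2 arrays, at 0.59 in Ezh2Δ/Δ cells and -1.50 in CD45.1+ cells from double-mutant mice. On the other 6 arrays it lay between -6.92 and -4.76, and WT cells were at -5.57. The difference between Ezh2Δ/Δ and WT cells was at least 56.9-fold, and that between CD45.1+ cells from double-mutant mice and WT cells at least 13.4-fold. The second array is of wild-type cells. B cell genes were also highest on these arrays: Vpreb1 was at 7.06 in Ezh2Δ/Δ cells and 3.88 in CD45.1+ cells from double-mutant mice, against -1.28 to 1.27 elsewhere, and the mean level of the B cell list was 1.90 and -0.09, against -4.15 to -2.38 elsewhere. Their part in the Lef1 difference was not tested. Bcl11b, the commitment factor, was well above background on 1 array, WT, at -4.30, and its values on the other 7, between -6.69 and -4.63, have no order.

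Notch1, the receptor that starts T-cell commitment, was at 2.85 in MDS/ML cells, 2.67 in MDS cells, 0.43 in double-mutant cells and -1.30 in RUNX1S291fs cells. It was at -1.37 in Ezh2Δ/Δ cells, -1.72 and -0.79 in CD45.1+ cells from double-mutant and RUNX1S291fs mice, and -1.36 in WT cells. The 2 moribund arrays were higher than each month 4 array, as were 10% of all genes. Its stage effect was 2.87 ± 0.58 (limma adjusted p = 0.0683), and 1 of 8 members had an unadjusted p under 0.05 as higher (4.34% of all genes). Set directly against double-mutant cells of month 4, Notch1 was 2.24 (log2) higher in MDS cells and 2.42 higher in MDS/ML cells. Lck was lower on both moribund arrays than on each month 4 array (17.4% of all genes) with a stage effect of -1.96 ± 0.61 (limma adjusted p = 0.199), the 1 member with an unadjusted p under 0.05 as lower (9.36% of all genes). Notch1 was also 3.46-fold higher in double-mutant than in WT cells of month 4, while it was 1.04-fold and 1.01-fold apart from WT in RUNX1S291fs and Ezh2Δ/Δ cells. The product term was 1.81 ± 0.74 (limma adjusted p = 0.762), the 1 member with an unadjusted p under 0.05 as higher (3.54% of all genes).

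A second Notch1 probe did not give the same picture. It was at -6.41 in MDS/ML cells, -6.97 in MDS cells, -6.96 in double-mutant cells and -4.14 in RUNX1S291fs cells, against -3.79 in Ezh2Δ/Δ cells, -3.63 and -5.54 in CD45.1+ cells from double-mutant and RUNX1S291fs mice, and -3.46 in WT cells. It was well above background on the WT, Ezh2Δ/Δ and CD45.1+ array from double-mutant mice alone, so on all 3 double-mutant arrays it was dim, and no stage direction can be read from it (-0.70 ± 1.05, limma adjusted p = 0.857). Its WT level of -3.46 lay above the lowest signal well above background on the double-mutant, MDS and MDS/ML arrays (-4.72, -5.11 and -4.29). By this probe Notch1 was thus lower than in WT on all 3 double-mutant arrays, where the brighter probe was higher than in WT. The probes contradict each other there, so the direction of Notch1 in double-mutant cells is uncertain. The probe pairs of Tcf7 and Bcl11b had second probes well above background on 0 arrays, and that of Cd2, printed on 10 spots, on 1.

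**Figure D2:**
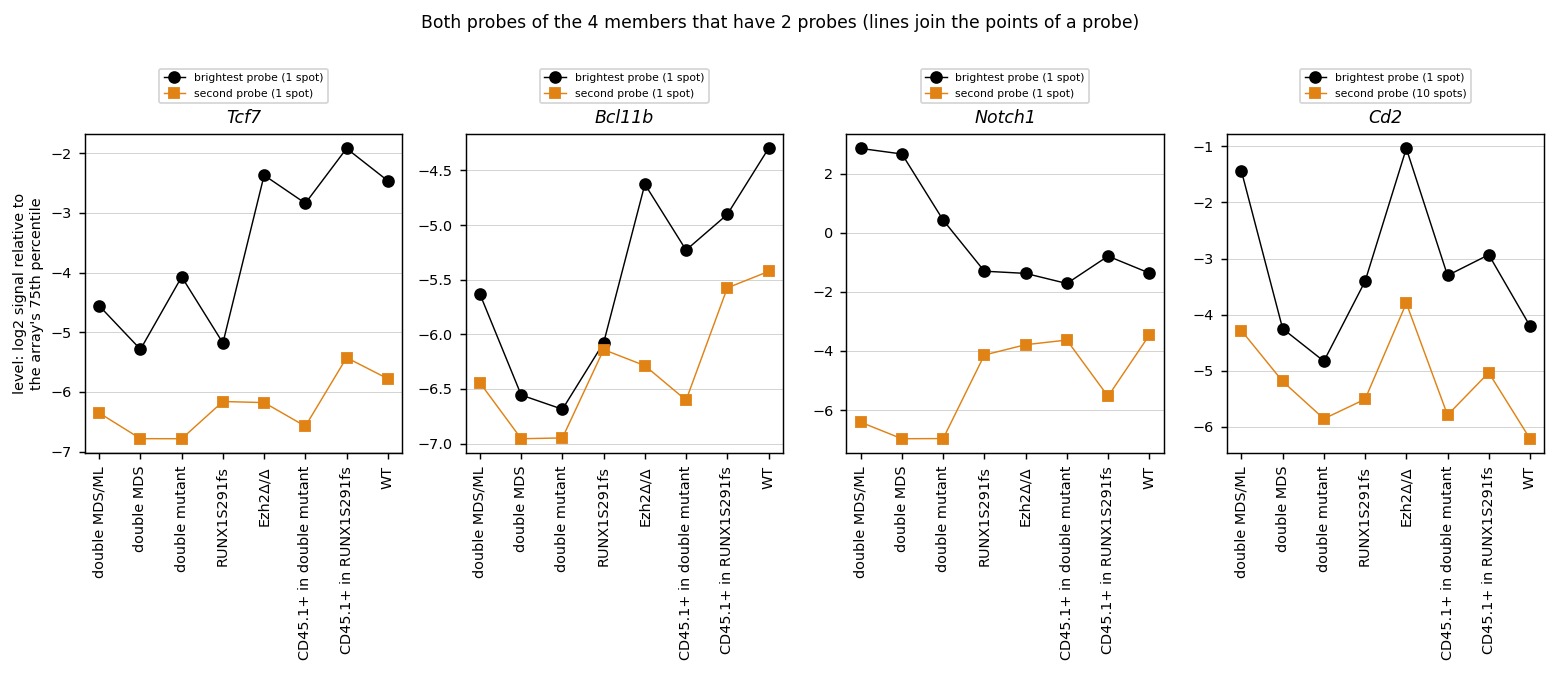
Levels on the 8 arrays of both probes of Tcf7, Bcl11b, Notch1 and Cd2, as log2 signal relative to the array's 75th percentile; lines join the points of a probe and carry no order. The brighter Notch1 probe is highest on the moribund arrays, at 2.85 and 2.67, where the dimmer is at -6.41 and -6.97.

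The 3 Cd3 genes did not go together with Lck. Cd3e, on all 8 arrays well above background, was at 0.68 in RUNX1S291fs cells, 0.81 in double-mutant cells, 1.17 in MDS cells and 0.82 in MDS/ML cells, against 0.53 in Ezh2Δ/Δ cells, -0.07 and 1.18 in CD45.1+ cells from double-mutant and RUNX1S291fs mice, and 0.10 in WT cells. Its fitted effects were 0.28 ± 0.42 for RUNX1S291fs, 0.13 ± 0.42 for Ezh2 deletion and 0.18 ± 0.51 for stage.

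Cd3d was at -2.87 in RUNX1S291fs cells, -4.79 and dim in double-mutant cells, -3.85 in MDS cells and -1.99 in MDS/ML cells. It was at -1.97 in Ezh2Δ/Δ cells, -3.66 and -1.99 in CD45.1+ cells from double-mutant and RUNX1S291fs mice, and -4.32 in WT cells. Cd2 was at -3.40, -4.83 (dim), -4.25 and -1.44 in RUNX1S291fs, double-mutant, MDS and MDS/ML cells. On the other arrays it was at -1.04 in Ezh2Δ/Δ cells, -3.30 and -2.93 in CD45.1+ cells from double-mutant and RUNX1S291fs mice, and -4.20 in WT cells. Cd3g was well above background on 3 arrays, at -2.06 in MDS/ML cells, -2.83 in Ezh2Δ/Δ cells and -2.57 in CD45.1+ cells from RUNX1S291fs mice, and dim on the other 5, between -5.44 and -4.41. All 3 genes were higher on these arrays than on the WT array, where Cd3g was dim. Over the 8 arrays, Cd3d and Cd3g had a Pearson r of 0.91 and Cd3d and Cd2 of 0.89, whereas Lck and Cd3g had 0.01. Lck correlated with Tcf7 at 0.89 and with Gata3 at 0.80. These are descriptions over 8 arrays of different groups, some values being dim.

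The arrays with high Cd2 differ in a further way. The Y-linked genes Ddx3y, Eif2s3y and Uty were well above background on the MDS/ML and Ezh2Δ/Δ arrays alone, and Xist on the other 6. These are the arrays with the highest Cd2, and Cd3d was as high on the CD45.1+ array from RUNX1S291fs mice, the dimmest array. The labels give no sex for the mice, and its part in the Cd2 and Cd3 levels was not tested. Cd2 and Cd3d also differed by slide. On the slide with Ezh2Δ/Δ, RUNX1S291fs and CD45.1+ arrays, Cd2 was at -3.40 to -1.04 and Cd3d at -3.66 to -1.97. On the slide with WT, double-mutant and MDS arrays, they were at -4.83 to -4.20 and -4.79 to -3.85. Ezh2Δ/Δ and WT arrays were on different slides, so slide and genotype cannot be told apart in that pair. MDS/ML and MDS arrays were on different slides too. In MDS/ML cells Cd2 was 6.99-fold and Cd3d 3.62-fold higher than in MDS cells.

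The remaining pairs of arrays have no test, and a count of 2-fold differences describes 1 array against another, with dim values raised to the array's floor. In Ezh2Δ/Δ against WT cells, whose arrays were on different slides, 4 of 10 members were at least 2-fold higher (Lef1, Cd3d, Cd3g and Cd2). The share of all genes was 7.82%. In the same pair 1 member was lower (Gata3, against 3.88%). In RUNX1S291fs against WT cells, 1 of 8 was higher (8.57%) and 2 lower, Lck and Tcf7 (5.76%). In double-mutant against WT cells 1 of 8 was higher (10.6%) and 3 lower (7.96%), and in double-mutant against Ezh2Δ/Δ cells 1 of 9 was higher (11.0%) and 7 lower (11.0%). In double-mutant against RUNX1S291fs cells, 1 of 7 was higher (8.08%) and 3 lower (8.53%). Moribund cells were set against double-mutant cells of month 4. In MDS cells 1 of 7 was higher (10.7%) and 3 lower (20.5%), while in MDS/ML cells 4 of 8 were higher (9.82%) and 0 lower (15.2%), and in MDS/ML against MDS cells 5 of 7 were higher (11.6%) and 0 lower (9.04%). Within a marrow, RUNX1S291fs cells had 1 of 8 members higher (9.13%) and 3 lower (12.4%) than CD45.1+ cells, and double-mutant cells 1 of 8 higher (10.3%) and 6 lower (9.47%). Wild-type arrays differed too: CD45.1+ cells from RUNX1S291fs mice had 4 of 9 higher (11.3%) and 1 lower (7.03%) than WT cells, and those from double-mutant mice 1 of 9 higher (4.59%) and 0 lower (2.64%). Between both competitor arrays, cells from double-mutant mice had 2 of 9 members higher (7.26%) and 3 lower (9.38%) than cells from RUNX1S291fs mice, so 5 of 9 members were 2-fold apart between arrays of wild-type cells.

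**Figure D3:**
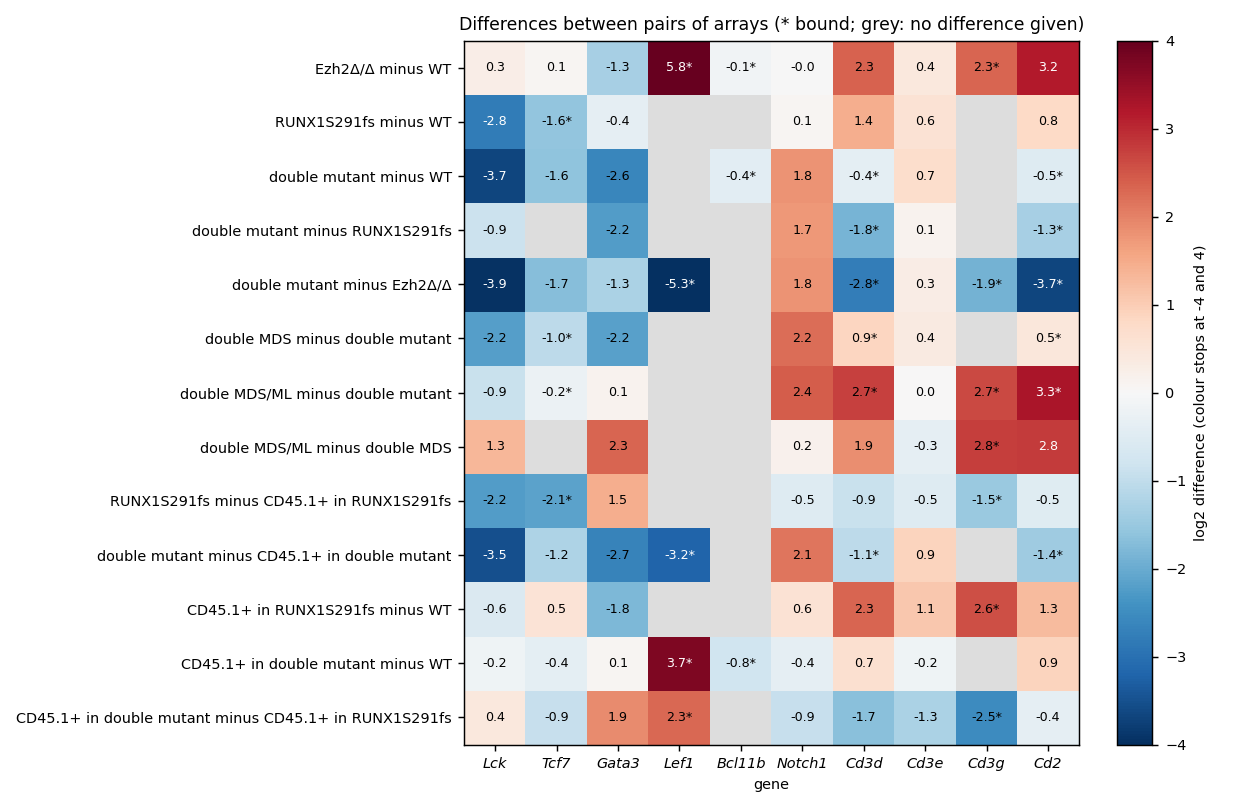
Log2 difference of each member between pairs of arrays, first-named group minus second, with colour stopping at -4 and 4; an asterisk marks a bound and grey a pair with no difference given. Lck is negative in each pair of a RUNX1S291fs carrier against a non-carrier.

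The medians of fitted effects over the 8 members tested were -0.91 for RUNX1S291fs, 0.30 for Ezh2 deletion, 0.50 for stage and -1.43 for the product, beside 0.03, -0.04, -0.13 and 0.22 over all genes tested. With RUNX1S291fs 6 members were lower and 2 higher. In the plot of fitted effects, the largest relative to their SE were Lck and Tcf7 for RUNX1S291fs and the brighter Notch1 probe for stage.

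**Figure D4:**
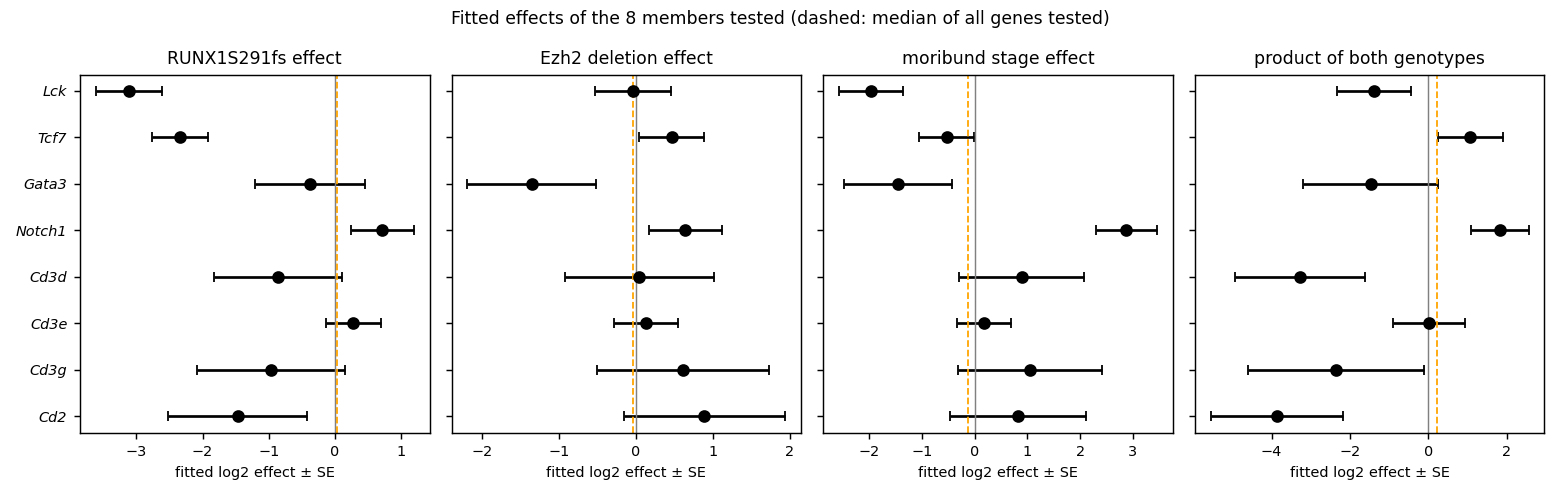
Fitted log2 effect ± SE of RUNX1S291fs, Ezh2 deletion, moribund stage and the product of both genotypes for the 8 members tested, with the median of all genes tested as a dashed line. Lck and Tcf7 lie at -3.12 and -2.34 for RUNX1S291fs, and 0 of the effects passed the adjusted threshold.

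Other T-cell receptor genes were read from a list of 24, of which 19 were tested. For RUNX1S291fs 0 passed, 7 had an unadjusted p under 0.05 as lower (3.35% of all genes) and 1 as higher (2.60% of all genes), and the median effect was -0.27, beside 0.03 over all genes. Zap70, the kinase that acts after Lck, had an effect of -3.03 ± 0.51 (adjusted p = 0.124 by limma), and Skap1, an adaptor, one of -3.20 ± 0.79. Cd6, a surface receptor, was at -2.13 ± 0.41 and Ptprcap at -1.89 ± 0.35. With stage, 1 passed (0.273% of all genes as higher), Lat, the adaptor below Zap70 in the signal, which rose by 2.75 ± 0.48 (adjusted p = 0.0420 by limma). Cd8a, Cd8b1, Themis and Sh2d1a, genes of mature or thymic T cells, were well above background on 0 of 8 arrays. Of 14 tested genes for other T-lineage transcription factors, 1 passed: Tox, which rose with stage by 3.56 ± 0.55 (adjusted p = 0.0278 by limma). Of the Notch pathway genes 21 were tested, 0 passed for any term, and the median effect of RUNX1S291fs was -0.11.

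Markers of other cells were read beside the Lck and Tcf7 values. For RUNX1S291fs, 0 genes passed in the lists of NK and cytotoxic, lymphoid-primed progenitor, B cell, and mast cell and basophil genes. The mean level of the 8 lymphoid-primed progenitor genes was -2.17 to 0.18 on the 4 carriers and 1.05 to 3.14 on the others. That of 12 B cell genes was -4.15 to -2.85 on carriers and -2.68 to 1.90 on the others. Neither overlapped. Of all single genes tested 4.88% lay on each carrier below each other array, but no such share was taken for means of gene lists, so these means have no background. The B cell ranges lay close and average dim values. Of the 12 genes, 4 to 7 were well above background on carriers and 5 to 10 on the others. The mean level did overlap for 13 NK and cytotoxic genes (-3.09 to -2.56 on carriers, -2.62 to -1.56 on the others), for 24 T-cell receptor genes (-2.08 to -1.33 on carriers, -1.36 to -0.76 on the others) and for 9 mast cell and basophil genes (-1.11 to 3.19 on carriers, -1.81 to 0.45 on the others). Summed signal of the last 3 lists, relative to the array's 75th percentile, did not overlap. It was 8.42 to 25.1 on carriers and 58.0 to 142 on the others for NK genes, 37.8 to 90.8 on carriers and 106 to 135 on the others for T-cell receptor genes, and 166 to 416 on carriers and 17.7 to 38.2 on the others for mast cell genes. Single bright probes made up much of the higher sums. Nkg7, a granule protein gene, was at 1.52 to 4.40 on carriers and 5.57 to 7.07 on the others, Ptprcap at 3.95 to 4.90 on carriers and 6.18 to 6.58 on the others, and Cpa3 at 6.39 to 8.47 on carriers and 1.45 to 2.24 on the others. Of the 13 NK and cytotoxic genes, 8 to 10 were well above background on each array. The receptor gene Klrb1c was so on 7 arrays, while Ncr1, Klrk1 and Klre1 were not on any. Among genes of these lists, the RUNX1S291fs effect was -2.97 ± 0.51 for Klrb1c (NK1.1), -2.33 ± 0.36 for Dntt, which adds bases at antigen receptor joints, -4.87 ± 1.06 for Vpreb1 of the pre-B receptor and 4.73 ± 0.51 for the mast cell protease Cpa3, and none of these passed (limma adjusted p = 0.135, 0.102, 0.241 and 0.0839). The part these cells had in the Lck and Tcf7 differences was not tested.

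**Figure D5:**
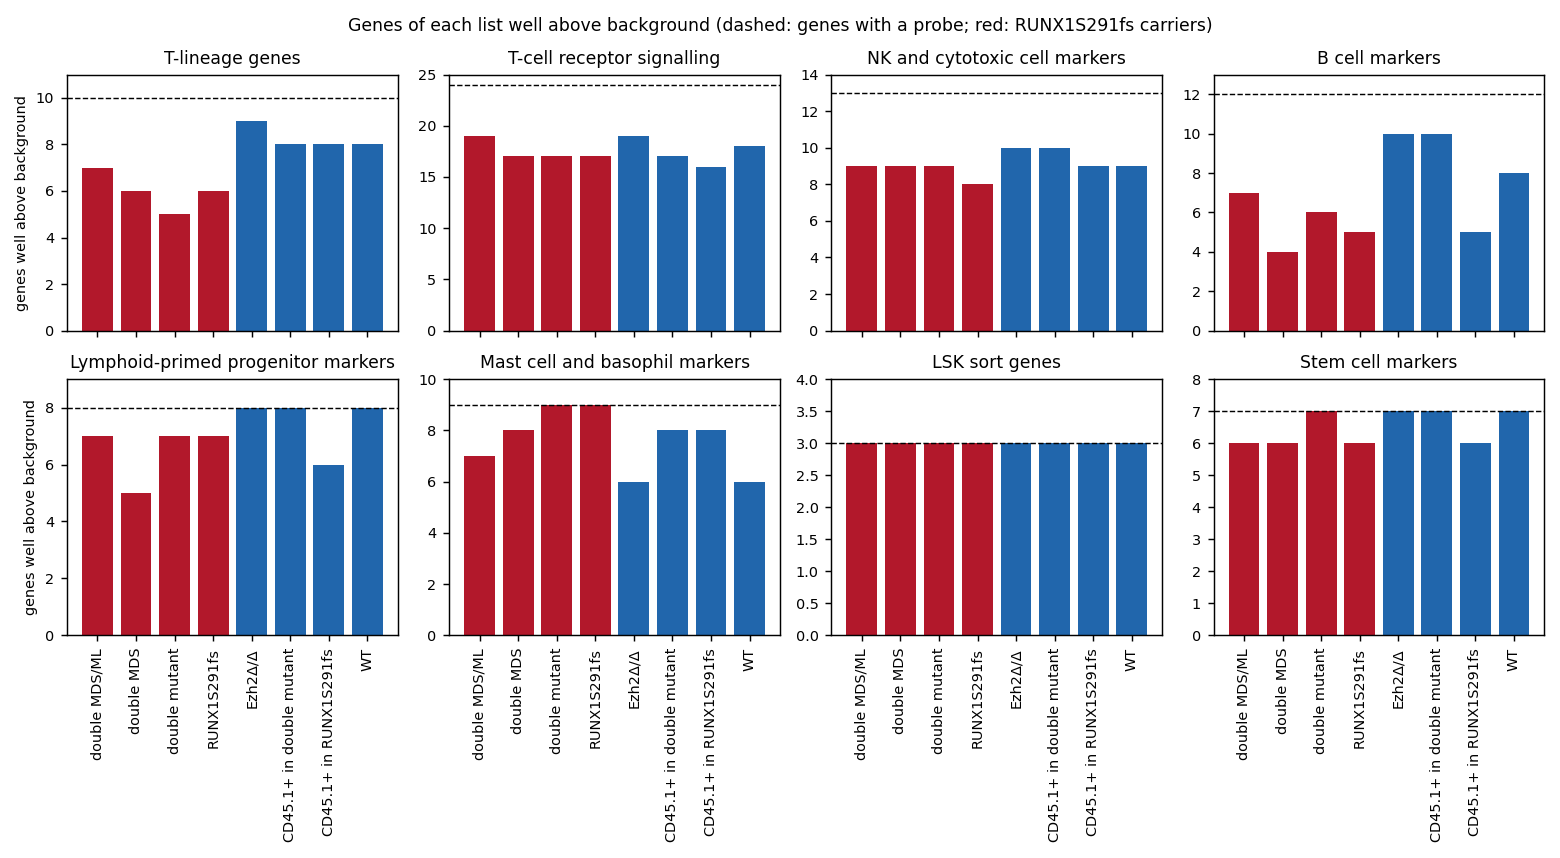
Number of genes of each list well above background on the 8 arrays, with a dashed line at the number with a probe and red bars for RUNX1S291fs carriers. Of the 10 members, 5 to 7 were well above background on carriers and 8 or 9 on the others. The percentage of all probes well above background overlapped between carriers and the others. The member count turned in part on signals near background, such as those of Tcf7 and Cd3g, which have no order.

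By likeness of level over the 8 arrays, the genes nearest to Lck were Cox6a2 (Pearson r = 0.99), 1500009L16Rik (0.99) and Tcam1 (0.99). Among those nearest to Tcf7 were Pigh (0.97) and Pdcd1 (0.97), and nearest to Gata3 were Cdca7l (0.99), Lrrc75a (0.98) and Notch2 (0.98). For the brighter Notch1 probe they were Trpm1 (0.997), Rhox8 (0.996) and Pigr (0.996). Cd3d was nearest to Fam166b (0.93), Samd3 (0.92) and Hspbap1 (0.91), Cd3g to Olfr123 (0.93), Siah3 (0.92) and Vsig2 (0.92), and Cd3e to 2810006K23Rik (0.98), Lcn12 (0.97) and Astn2 (0.96). Among those nearest to Cd2 were Cd86 (0.93) and Samd3 (0.91). With 8 arrays and 13548 genes searched, r this high describes the arrays only.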

How the data were processed

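RNA of sorted LSK cells was measured on 8 Agilent one-colour arrays (design 028005), 1 for each group. Per the labels' protocols, 20 ng of RNA was amplified and labelled with Cy3. Per the file headers, the scanner software was Agilent Feature Extraction 10.7.1.1, whose processed signal is an intensity after background removal, with no scaling between arrays. The series table deposited by the authors holds linear signal, which set against the scanner values was that intensity divided by 1 factor for each array (100% of probes within 0.01 log2). Its scale and direction are thus known, and it was not centred on genes.

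Levels are log2 processed signal minus the array's 75th percentile. Probes were named through transcript accessions in the RefSeq table of GRCm38.p6, for names only: 27235 of 55681 probes. Genes detected (well above background) on 3 or more of the 8 arrays were fitted with limma 3.58.1 in R 4.3.3 (4 residual and 3.12 prior degrees of freedom), with Benjamini-Hochberg adjustment at 0.05, after a test on simulated data. The number of arrays limits the precision. Members and lists were chosen with earlier results of these data known. Genes named were all members, up to 4 tested genes of each list with the smallest RUNX1S291fs p, any that passed, and the 3 nearest in level to each member, of which some are not reported here. Alternatives were quantile normalization, normexp, the series table, other probes, floors and filters, slide, stage, CD45.1 and marrow terms, and arrays left out.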

Additional observations from a re-analysis of the deposited data

Results flagged for a closer look

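Cd3d differed in direction between the backgrounds in which RUNX1S291fs was added. The measured log2 difference was 1.44 for RUNX1S291fs minus WT cells. For double-mutant minus Ezh2Δ/Δ cells the double-mutant value was not well above background. With that value raised to the array's floor the difference was -2.75, a bound, and with the dim value left as it was -2.82. With 1 array a group, this opposition was not tested. RUNX1S291fs and Ezh2Δ/Δ arrays shared a slide, and WT and double-mutant arrays shared another, so each pair crossed slides. The opposition therefore cannot be told apart from slide. Cd3d was at -3.66 to -1.97 on the arrays of the first slide and -4.79 to -3.85 on those of the second. The product term of the limma fit over 8 arrays was -3.27 ± 1.66 for Cd3d (SE, adjusted p = 0.812) and did not pass.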

How the results depend on the processing

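With 1 array a group, the number of arrays limits the precision, and signals near background have no order. Mutant and competitor cells share a marrow in 2 cases. With these 4 arrays alone and marrow as a replicate block, an alternative chosen after seeing the data, 0 members passed for RUNX1S291fs, and Lck was at -2.87 and Tcf7 at -2.24 (limma adjusted p = 0.311 and 0.662), with no sign turned among the 8 members. In that fit RUNX1S291fs and the CD45 allele cannot be told apart. It also had no term for Ezh2 deletion, so in the double-mutant marrow the difference takes in that deletion too. Of the members, 0 passed for RUNX1S291fs, Ezh2 deletion or the product under any alternative run. Under normexp on the median spot signal 1 passed for stage: Notch1 at 2.60 (limma adjusted p = 0.0217). That correction and the second-brightest probe were chosen after seeing the data. The planned normexp on the mean spot signal was not run, since no such column was used here. The product could not be fitted without the Ezh2Δ/Δ, RUNX1S291fs or double-mutant array, and stage has no value without moribund arrays or without its term.

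For Notch1, the RUNX1S291fs effect reversed to -0.26 with the mean of its probes and -1.23 with the second probe, the stage effect to -0.70 ± 1.05 with the second probe (dim on all 3 double-mutant arrays, so that its sign carries no order), and the product to -0.72 with the mean and -3.25 with the second probe. Leaving out each array in turn, the RUNX1S291fs effect ran from -1.26 to 0.22 for Gata3, -0.010 to 1.80 for Notch1, -2.82 to 0.45 for Cd3d and -3.79 to 0.074 for Cd2. In each, the sign turned without the Ezh2Δ/Δ or the double-mutant array. Members apart between carriers and other arrays numbered 1 lower in place of 2 with the second probe. Members higher on carriers numbered 0 to 2 when each array was left out, with 1 without the RUNX1S291fs array and 2 without the CD45.1+ array from RUNX1S291fs mice.

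Counts of members 2-fold apart moved as follows. Under normexp, RUNX1S291fs minus WT had 0 higher and 1 lower, double mutant minus RUNX1S291fs 1 lower, double mutant minus Ezh2Δ/Δ 3 lower, MDS/ML minus double mutant 2 higher, MDS/ML minus MDS 3 higher, double mutant minus its CD45.1+ cells 3 lower, and the CD45.1+ pair 1 higher. With the mean of probes and with the second probe, RUNX1S291fs minus WT had 1 lower, and double mutant minus WT, RUNX1S291fs, Ezh2Δ/Δ or its CD45.1+ cells 0 higher. With the second probe alone, MDS minus double mutant had 0 higher and MDS/ML minus double mutant 2 higher. Where measured values replaced the bounds, double mutant minus RUNX1S291fs had 2 higher. At 4-fold, 0 were higher for RUNX1S291fs minus WT, for double mutant minus WT, RUNX1S291fs or Ezh2Δ/Δ, and for RUNX1S291fs minus its CD45.1+ cells. At 4-fold, 0 were lower for Ezh2Δ/Δ and for the CD45.1+ cells from RUNX1S291fs mice, each minus WT. At 4-fold 1 was lower for RUNX1S291fs minus WT and for double mutant minus RUNX1S291fs, 4 for double mutant minus Ezh2Δ/Δ and 3 for it minus its CD45.1+ cells. At 4-fold MDS/ML minus MDS had 3 higher, CD45.1+ from RUNX1S291fs mice minus WT 2 higher, and the CD45.1+ pair 1 higher and 1 lower. The cause of these moves was not tested.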

Other observations

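Flt3, Cd34 and Procr, of the stem and progenitor lists, passed for stage and were lower on both moribund arrays than on each month 4 array. Flt3, the receptor of lymphoid-primed progenitors, was at -2.34 and -1.28 in MDS and MDS/ML cells, against 3.23 to 5.90 on the month 4 arrays, with a stage effect of -5.46 ± 0.61 (SE, limma adjusted p = 0.0126). Cd34, a surface marker of progenitors, had a stage effect of -3.70 ± 0.38 (limma adjusted p = 0.0115), and Procr, the stem cell receptor EPCR, one of -5.85 ± 0.95 (limma adjusted p = 0.0327). Il17rb, a receptor of group 2 innate lymphoid cells, also passed as lower, and was not well above background on either moribund array, against -2.68 to -0.35 on the month 4 arrays. The mast cell protease Tpsb2 passed as lower, with an effect of -4.08 ± 0.74 (limma adjusted p = 0.0474). It was at -1.15 and -1.76 in MDS and MDS/ML cells, against 3.37 and 1.15 in double-mutant and RUNX1S291fs cells of month 4 and -1.69 to -0.62 on the arrays without RUNX1S291fs, so its moribund levels overlapped with the last of these.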
